A study of Mus musculus with 4 samples.

Results

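The Ghrl-panel cells are endodermal cells of day 9 mouse embryoid bodies, chosen by the expression of 6 genes. A cell was taken when it had at least 1 UMI (unique molecular identifier, 1 counted RNA molecule) in 4 or more of Ghrl, Pyy, Nepn, Cdkn2a, Cdkn2b and Rgs17, and at least 2 UMIs in fewer than 4 of the secretory genes Itih2, Ambp, Vtn, Fgg, Serpina1a and Serpina6. The table holds 10090 cells. Cells with 500 or more genes detected and a mitochondrial share no higher than 10% were kept, 8876 in all, and 867 of them met the rule. They numbered 254 and 161 in DUX-pulsed libraries, against 229 and 223 in control libraries.

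Embryoid bodies are aggregates in which embryonic stem cells (mESC) differentiate without an imposed pattern. The tested libraries came from mESC that had been pulsed with DUX, a transcription factor of the early cleavage-stage embryo, and the others from control mESC, with 2 biological replicates of each, all sampled on day 9 and sequenced as single cells by droplets. The labels used here give no strain, clone, sex, length of the pulse or way in which DUX was delivered, and they do not say whether control cells received an inducer. The p-values below rest on the spread between the 2 libraries of each group. In the main comparison this spread was drawn towards that of genes of like level (prior degrees of freedom 7.34). A gene's own spread therefore counted only in part.

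Ghrl encodes preproghrelin, the precursor of the hunger hormone of the stomach and the upper gut, and Pyy encodes peptide YY, a satiety hormone of the distal gut. Both are made by enteroendocrine cells, which arise from endoderm through the transcription factor Neurog3 and store hormones in granules that hold chromogranins. Nepn encodes nephrocan, a small leucine-rich protein known as a marker of mid- and hindgut endoderm in the mouse embryo. Cdkn2a and Cdkn2b encode inhibitors of the cyclin D kinases, and Rgs17 encodes a regulator of G protein signalling.

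The promoters of Nepn, Ghrl and Pyy are shown because their genes give the cells their name and their most widely detected marker. Each line holds the 300 bases from 250 before to 50 after a RefSeq transcript start, 5′ to 3′ on the strand of the gene, in the mouse build GRCm38.p6. They lie at chr10:52391358-52391657 on the plus strand for Nepn, at chr6:113719405-113719704 on the minus strand for Ghrl and at chr11:102107783-102108082 on the minus strand for Pyy.
Nepn: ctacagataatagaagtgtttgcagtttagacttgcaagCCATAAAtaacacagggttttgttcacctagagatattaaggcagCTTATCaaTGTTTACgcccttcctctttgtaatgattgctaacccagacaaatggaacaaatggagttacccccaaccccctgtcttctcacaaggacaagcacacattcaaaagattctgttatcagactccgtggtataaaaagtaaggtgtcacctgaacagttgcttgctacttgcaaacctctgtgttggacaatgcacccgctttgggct
Ghrl: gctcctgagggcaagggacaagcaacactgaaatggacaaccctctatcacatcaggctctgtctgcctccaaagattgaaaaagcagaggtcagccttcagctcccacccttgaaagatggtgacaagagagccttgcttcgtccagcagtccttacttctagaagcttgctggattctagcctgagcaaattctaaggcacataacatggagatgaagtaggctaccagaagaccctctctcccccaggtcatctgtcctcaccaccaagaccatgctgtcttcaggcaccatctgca
Pyy: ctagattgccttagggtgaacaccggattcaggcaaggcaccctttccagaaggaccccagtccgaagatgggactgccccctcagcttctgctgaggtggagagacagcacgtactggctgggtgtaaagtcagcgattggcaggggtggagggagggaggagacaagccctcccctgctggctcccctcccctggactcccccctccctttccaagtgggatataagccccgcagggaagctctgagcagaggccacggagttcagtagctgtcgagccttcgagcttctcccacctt
Capitals mark matches, on either strand, to 4 motif strings of endodermal transcription factors: GATAAG for the GATA factors, TGTTTAC for the forkhead box A factors, TTTATNG for the caudal factors and CAAAGTCCA for HNF4. The Nepn window held 1 match each to the GATA, forkhead and caudal strings and 0 to the HNF4 string, and none of the matches overlapped another. The windows of Ghrl, Pyy, Cdkn2a, Cdkn2b and Rgs17 held 0 matches to any of the 4 strings. Only 1 window per gene was searched, of 4 listed for Ghrl, 2 for Pyy and 2 for Cdkn2a. Over 32851 RefSeq promoter windows of the same length, 7.44% held the GATA string, 3.65% the forkhead string, 10.9% the caudal string and 0.475% the HNF4 string.

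The cells were sequenced deeply. Median counts were 34668 and 39385 UMIs per Ghrl-panel cell in DUX-pulsed libraries, against 45034 and 34962 in control libraries, and summed counts ranged from 6674824 to 11697497 UMIs per library. The mitochondrial share was lower in the DUX-pulsed cells, with medians of 4.11% and 5.16% against 6.65% and 7.04%, as it was among all kept cells (4.01% and 4.54% against 6.22% and 6.42%). Of the barcodes, 7 occurred in more than 1 library among kept cells and 0 among the Ghrl-panel cells. Levels below are CPM, counts scaled to a common library total, computed from the UMIs summed over the Ghrl-panel cells of a library, and each pair of values gives replicates 1 and 2.

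The 6 marker genes chose the cells, so their levels are given as a description without a test. Ghrl reached 483 and 416 CPM in DUX-pulsed Ghrl-panel cells, against 133 and 186 CPM in control ones. Nepn stood at 894 and 1141 CPM in the DUX-pulsed libraries and at 429 and 498 CPM in the control libraries. For both genes the DUX-pulsed libraries lay above both control libraries.

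The same order held for the other cell cycle and signalling markers. Cdkn2a had 184 and 184 CPM in the DUX-pulsed libraries against 61.1 and 52.7 CPM in the control libraries, a count that does not separate the 2 protein products of the gene. Cdkn2b had 66.6 and 86.1 CPM against 22.2 and 23.6 CPM. Rgs17 had 97.6 and 112 CPM against 52.7 and 64.8 CPM. Pyy went the other way, with 85.0 and 77.9 CPM in DUX-pulsed cells and 117 and 117 CPM in control cells. All groups were apart for each of these 4 genes.

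**Figure D1:**
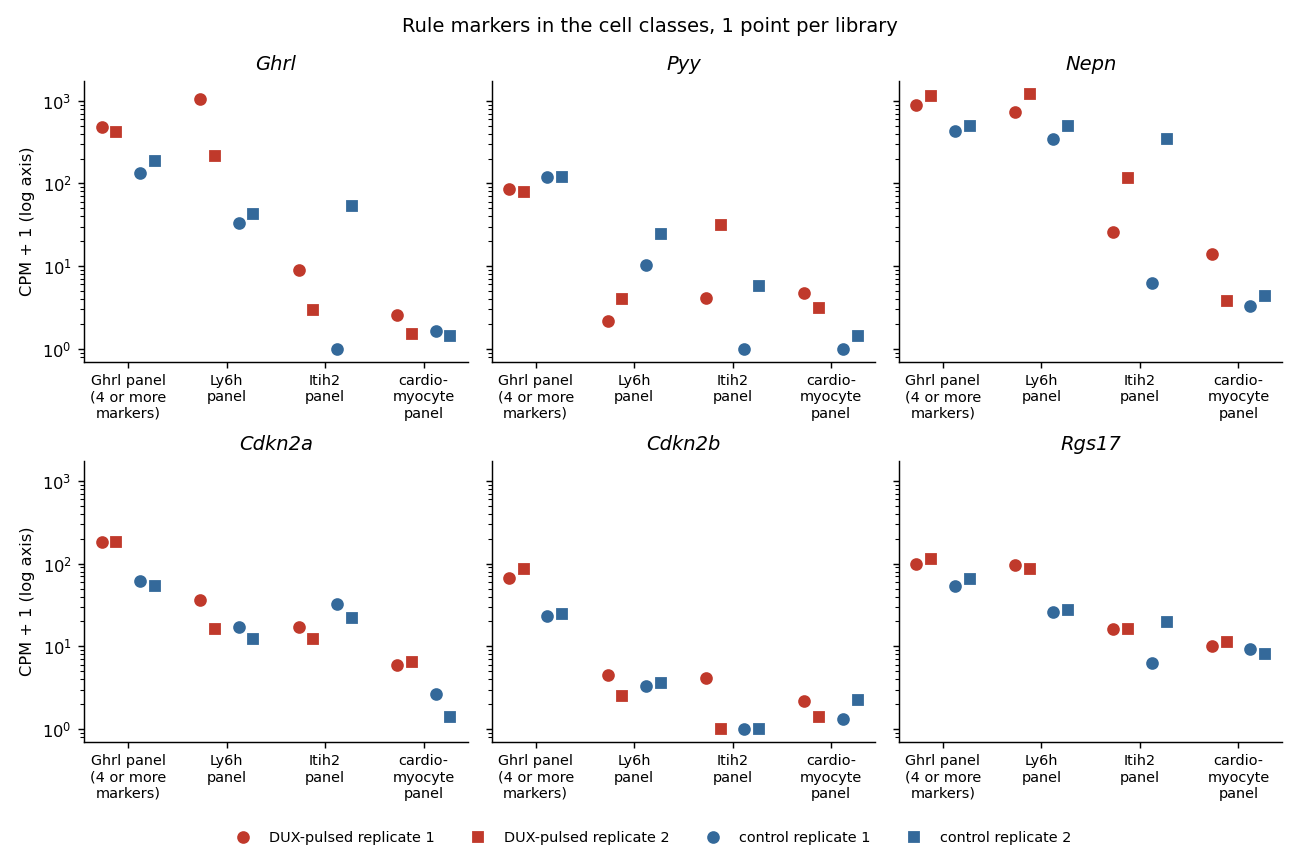
CPM plus 1 on a log axis for the 6 marker genes (1 panel each) in 4 classes of cells, with 1 point per library (red, DUX-pulsed, drawn left; blue, control; circles, replicate 1; squares, replicate 2). Ghrl lay between 133 and 483 CPM in the Ghrl-panel cells and at no more than 1.59 CPM in the cardiomyocyte-panel cells. The Ly6h-panel cells are endodermal cells outside the rule, with a UMI in 4 or more of Ly6h, Rarres1, Flt1, Cldn9 and Camkv. Their 6 markers summed to 1911 and 1531 CPM in DUX-pulsed libraries (27 and 17 cells) and 432 and 600 CPM in control libraries. The sums in the Ghrl-panel cells were 1811 and 2017 CPM against 815 and 942 CPM.

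For Ghrl, though not for Pyy, detection differed less than level, and the rule itself asked for detection of the markers. Ghrl had a UMI in 82.7% and 77.6% of DUX-pulsed Ghrl-panel cells and in 78.2% and 74.0% of control ones, while Pyy was found in 31.1% and 26.7% against 39.3% and 44.4%. As a measure of free RNA, cells with at least 2 UMIs in 4 or more of 6 cardiomyocyte genes, which should make neither hormone, had a Ghrl UMI in 2.73% and 1.5% of DUX-pulsed and 1.67% and 1.08% of control cells. Their Pyy shares were 1.74% and 1.5% of DUX-pulsed cells, against 0% and 1.08% of control cells, where 0 of 120 cells allows a share of up to 2.5%. Median depths in those cells were 22516 and 27879.5 UMIs against 23893 and 25776 UMIs. Thinned to 10000 UMIs per cell, Ghrl was still detected in 62.6% and 55.0% of DUX-pulsed Ghrl-panel cells against 48.5% and 44.8% of control ones, and Pyy in 22.0% and 15.0% against 21.8% and 23.3%.

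Nepn and Rgs17 carried the rule more than the hormones did. Nepn had a UMI in 94.5% and 98.1% of DUX-pulsed and 97.8% and 99.1% of control Ghrl-panel cells, and Rgs17 in 93.3% and 93.2% against 87.8% and 87.9%. Ghrl, Nepn, Cdkn2a and Rgs17 without the other markers made up the most frequent combination, in 214 cells or 24.7%. The same 4 genes with Cdkn2b followed, in 144 cells or 16.6%, and all 6 markers were found in 39 cells. Neither hormone was detected in 12.2% and 17.4% of DUX-pulsed Ghrl-panel cells, against 10.5% and 12.6% of control ones, and both hormones in 26.0% and 21.7% against 27.9% and 30.9%.

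Hormone RNA was concentrated in few cells. The 10% of the Ghrl-panel cells with the most Ghrl held 64.6% and 72.6% of the Ghrl UMIs in the DUX-pulsed libraries and 66.2% and 67.8% in the control libraries. For Pyy the top 10% held 84.9% and 89.2% against 86.5% and 84.7%. The highest single cell had 364 Ghrl UMIs in a DUX-pulsed library and 384 Pyy UMIs in a control library. Of all Pyy UMIs in kept cells, the Ghrl-panel cells held 84.4% and 74.6% in DUX-pulsed libraries, against 63.5% and 51.7% in control libraries. For Nepn the shares were 60.4% and 59.4% in DUX-pulsed libraries, against 21% and 14.6% in control libraries, where Nepn was also spread over many cells outside the rule.

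The Ghrl-panel cells formed 12.3% and 11.9% of kept cells in the DUX-pulsed libraries (exact 95% binomial intervals 10.9 to 13.8% and 10.2 to 13.7%), against 8.11% and 8.46% in the control libraries (7.13 to 9.18% and 7.43 to 9.59%). These intervals, like the limit for a count of 0, cover counting error only. The means were 12.1 ± 0.292% and 8.28 ± 0.248% (SD, n = 2 each), 3.82 percentage points apart, and no test was made of the share. The order of the means depended on the threshold of 4 markers. With 3 or more markers the libraries overlapped, at 21.6% and 19.5% in DUX-pulsed and 20.7% and 25.2% in control libraries. Their means were 20.5 ± 1.46% and 23 ± 3.16% (SD, n = 2 each), a difference of -2.41 points. With 5 or more markers the means were 5.14% against 2.07%.

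In every library, cells just inside the threshold were fewer and had a higher median depth than cells just outside it. Exactly 4 markers were found in 150 and 90 DUX-pulsed cells and in 169 and 170 control cells, with median counts of 32473 and 37065.5 UMIs against 45536 and 33671 UMIs. Exactly 3 markers were found in 191 and 103 DUX-pulsed cells and in 356 and 441 control cells, with median counts of 31372 and 31614 UMIs against 35002.5 and 31764 UMIs. The control libraries thus held more cells with 3 markers and the DUX-pulsed libraries a larger share with 5 or 6.

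The endodermal identity of the cells was borne out by genes outside the rule. At least 99.4% of the Ghrl-panel cells of every library had a UMI of Epcam, the epithelial cell adhesion molecule, against 35.5% and 27.4% of all other kept cells in the DUX-pulsed libraries and 72.3% and 77.5% in the control libraries. The forkhead factors of endoderm were present, Foxa1 at 74.3 and 99.6 CPM in DUX-pulsed and 60.1 and 78.6 CPM in control cells, and Foxa3 at 75.5 and 84.2 CPM against 103 and 107 CPM. Keratin 8 RNA (Krt8) stood at 2194 and 1931 CPM against 2308 and 2375 CPM. Cdx2, the caudal factor of the posterior gut, had a UMI in 78.7% and 82.6% of DUX-pulsed Ghrl-panel cells and in 89.1% and 87.0% of control ones. In all other kept cells Cdx2 was found in 14.7% and 13.3% of DUX-pulsed and 49.5% and 55.3% of control cells, so that it was widespread outside the class in the control libraries. In the cardiomyocyte-panel cells it was found in 0.744% and 0.752% of DUX-pulsed and 3.33% and 3.23% of control cells.

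Several genes that mark differentiated gut hormone cells were scarce or at 0. Neurog3, the factor that starts the enteroendocrine programme, had 0 of 37199293 UMIs in the Ghrl-panel cells of the 4 libraries, which allows a level of up to 0.0806 CPM. The same held for the intestinal factor Cdx1 and for the hormone genes Sst, Gast and Grp. Neurod1 and Insm1, which act downstream of Neurog3, stayed at or below 0.449 CPM in every library, as did Gip and Cck. The mucin gene Muc2 of goblet cells reached at most 0.672 CPM. None of the 33 Hox genes in the table had enough counts to be tested, and their summed level was 10.6 and 2.10 CPM in DUX-pulsed cells against 5.81 and 7.61 CPM in control cells. Cdx2, Rfx6 and 16 of 31 intestinal epithelial genes had enough counts to be tested, whereas Neurog3, Cdx1 and the Hox genes did not. Having enough counts is no sign of gut identity. Of all 20284 genes counted, 12381 had enough, as did 16 of 17 cardiomyocyte genes. These counts therefore do not decide the label of gut-like endoderm, and the cells are called here by their rule. The 31 intestinal genes summed to 3283 and 3359 CPM in DUX-pulsed and 7038 and 7057 CPM in control cells. Of this, Spink1, also a gene of the visceral endoderm list, made up 1495 and 1695 CPM and 4864 and 4744 CPM. In all other kept cells the 31 genes summed to 1468 and 1105 CPM in DUX-pulsed libraries. In control libraries they summed to 8501 and 9111 CPM there, more than in the Ghrl-panel cells.

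Parts of the hormone machinery were nevertheless measured. Mboat4, the acyltransferase that activates ghrelin, stood at 4.35 and 6.59 CPM in DUX-pulsed cells and at 4.96 and 6.04 CPM in control cells. Pam, which amidates peptide hormones, stood at 43.6 and 67.9 CPM against 42.5 and 64.0 CPM. The secretin gene Sct ranged more between replicates, with 4.45 and 23.2 CPM against 16.9 and 14.0 CPM. The groups overlapped for all 3 genes.

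Among genes outside the rule, those that stood out most from all other kept cells over the 4 libraries were Tspan8, a tetraspanin, and Clu, the secreted chaperone clusterin. Tspan8 had 206 and 187 CPM in DUX-pulsed and 167 and 175 CPM in control Ghrl-panel cells, against 42.4 and 24.9 CPM and 65.9 and 77.3 CPM in the other cells of those libraries. Clu had 1012 and 1149 CPM in DUX-pulsed and 570 and 551 CPM in control Ghrl-panel cells. Dtna, Hpx (hemopexin, a haem carrier), Tff3 (a trefoil peptide of mucosal surfaces), Enpp1 and Dio3 (an enzyme that inactivates thyroid hormone) followed. The 20 leading genes also held Rbp4, the retinol carrier, at 10712 and 10606 CPM in DUX-pulsed and 12506 and 12458 CPM in control cells, and Afp, Cdx2, Foxa1 and Ly6h. These values describe a class chosen by expression and carry no test.

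The control cells of the class overlapped with a second endodermal panel far more than the DUX-pulsed ones. A UMI in 4 or more of Ly6h, Rarres1, Flt1, Cldn9 and Camkv was found in 5.91% and 10.6% of DUX-pulsed Ghrl-panel cells, against 66.8% and 68.6% of control ones. Among all kept cells that panel was met by 2.08% and 2.51% in the DUX-pulsed libraries and by 34.6% and 42.4% in the control libraries. Without the Ly6h-panel cells, 239 and 144 DUX-pulsed and 76 and 70 control cells remained, which were 11.6% and 10.6% against 2.69% and 2.66% of kept cells. In these cells Ghrl had 470 and 414 CPM in the DUX-pulsed libraries against 122 and 89.4 CPM in the control libraries, and Pyy 87.6 and 78.9 CPM against 64.8 and 77.4 CPM. The order of Pyy between the groups was thus turned in the cells outside the Ly6h panel, though its nearest libraries, at 78.9 and 77.4 CPM, were close. Of 25 and 24 control Ghrl-panel cells with at least 10 Pyy UMIs, 20 and 19 met the Ly6h panel. The control values of Pyy outside that panel therefore rest on few such cells.

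Differences between DUX-pulsed and control Ghrl-panel cells were tested on the summed counts of the 4 libraries. Of 12381 genes tested, 1251 (10.1%) were higher and 1104 (8.92%) lower in the DUX-pulsed cells at an adjusted p under 0.05 (edgeR's quasi-likelihood test, Benjamini-Hochberg adjustment over all genes tested), and 3969 had an unadjusted p under 0.05. In 2354 of the 2355 genes called, both DUX-pulsed libraries lay beyond both control libraries. With 2 libraries per group this largely follows from the call itself. The share among all genes tested is not given here, so the count adds no support. The median log2 fold change of all genes tested was -0.01. Calls numbered 1230 when control replicate 1 was left out, 1293 when control replicate 2 was, and 1080 in the cells outside the Ly6h panel. Fewer cells of a type within the class and less RNA per cell cannot be told apart in such sums.

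Some of these differences followed chromosomes. In all other kept cells, running medians over 51 neighbouring genes were shifted between the groups by more than 0.4 on the log2 scale in stretches of several chromosomes. Those on chromosomes 4, 5, 13, 14 and 16 were shifted the same way in the Ghrl-panel cells, whereas 24 genes of the X chromosome had -0.28 there against -0.48 in the other cells, and 12 genes of chromosome 3 had -0.26 against 0.51. The 447 genes tested in the shifted stretch of chromosome 13 had a median log2 difference of 1.0 relative to all genes, and the 263 genes of distal chromosome 4 had 0.91. The 196 genes of distal chromosome 5 had -0.53 and the 45 of distal chromosome 16 had -0.52. Of the genes called, 483 of the 1251 higher and 124 of the 1104 lower lay in such stretches or on the Y chromosome. Among all 12381 genes tested, 1061 did. Cdkn2a and Cdkn2b, on chromosome 4 at 89274471 to 89294653 and 89306299 to 89311039 (mm10), lay outside the shifted stretch, which began at 129811219. The part of these shifts in single genes was not tested.

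**Figure D2:**
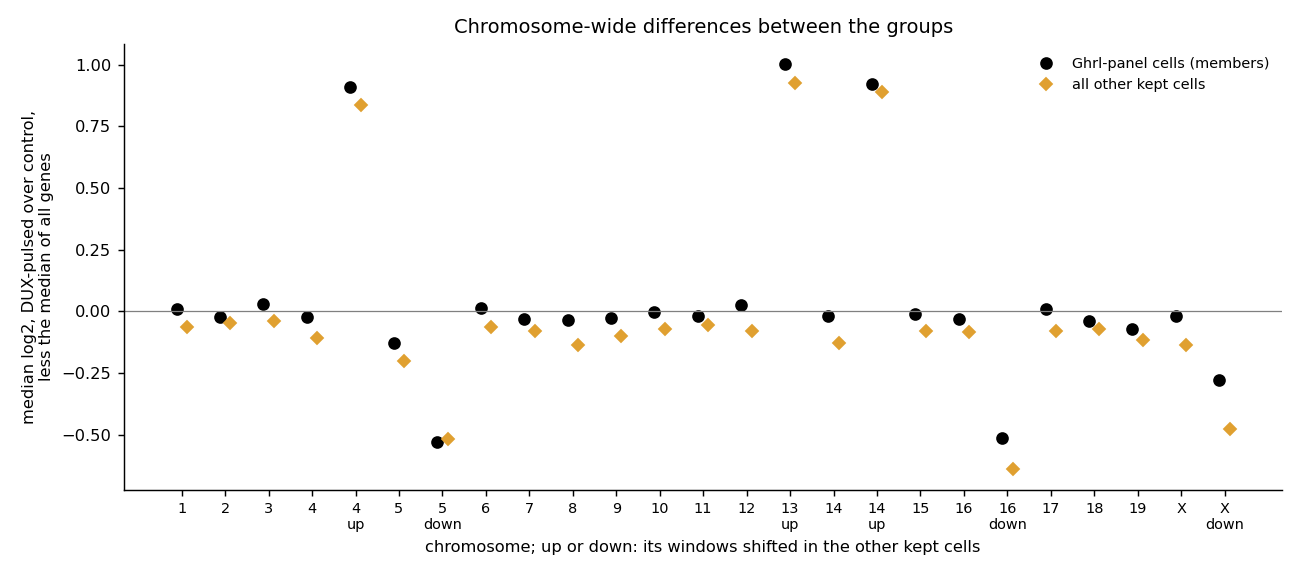
Median log2 difference, DUX-pulsed over control, less the median of all genes, for the genes of each chromosome, split into stretches shifted up or down in the other kept cells and the rest (stretches of at least 20 tested genes). Black circles are the Ghrl-panel cells and orange diamonds all other kept cells; chromosome 13 and the distal part of chromosome 4 lie near 1.0 and 0.91 in the Ghrl-panel cells, and distal chromosome 5 at -0.53.

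The 12 largest rises in the DUX-pulsed cells were of Gkn2, Vcan, Acta2, Stmn1, Espn, Afp, Plk2, Hspg2, Tubb2b, Jarid2, Tinagl1 and Tagln. Afp, the fetal plasma protein of yolk sac endoderm and liver, had 3072 and 4943 CPM in DUX-pulsed cells against 911 and 1153 CPM in control cells, which is 2.14 ± 0.23 on the log2 scale (SE; edgeR's adjusted p = 0.000558). Outside the Ly6h panel its difference was 1.42. Gkn2, which encodes the stomach mucosal protein gastrokine 2, had 87.4 and 16.3 CPM against 3.08 and 4.59 CPM, a log2 change of 4.0 ± 0.68 (adjusted p = 0.00403). It rested in part on DUX-pulsed replicate 1, without which the value was 2.27.

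Acta2 and Tagln, contractile proteins of smooth muscle, stood at 251 and 103 CPM and at 407 and 181 CPM in DUX-pulsed cells, against 28.2 and 45.4 CPM and 87.2 and 99.2 CPM in control cells. Their log2 fold changes were 2.48 ± 0.38 (adjusted p = 0.00244) and 1.85 ± 0.32 (adjusted p = 0.00429). In the cells outside the Ly6h panel neither passed the test, with adjusted p = 0.0507 for Acta2 and 0.139 for Tagln, and without DUX-pulsed replicate 1 the values were 1.67 and 1.12.

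Of the 12 largest rises, 8 lay in the shifted stretches of chromosomes 4 and 13. Vcan, which encodes the matrix proteoglycan versican, had 138 and 181 CPM in DUX-pulsed cells against 18.4 and 25.0 CPM in control cells, a log2 change of 3.07 ± 0.19 (adjusted p = 6.75e-05) that was 2.24 outside the Ly6h panel. Stmn1, a microtubule regulator, had 707 and 605 CPM against 155 and 127 CPM, and Espn, an actin bundling protein of microvilli, 83.6 and 84.2 CPM against 21.3 and 17.0 CPM. Plk2, Hspg2 (perlecan, of basement membranes), Tubb2b, Jarid2 (a Polycomb cofactor) and Tinagl1 had log2 fold changes between 1.86 and 1.99. The rule for naming admitted only genes without overlap between the groups, so the lack of overlap in these 8 is no added result.

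The 12 largest falls lay outside the shifted stretches. Trh, the precursor of thyrotropin-releasing hormone, had 3.74 and 3.90 CPM in DUX-pulsed cells against 141 and 14.9 CPM in control cells, a log2 change of -4.22 ± 0.92 (adjusted p = 0.012). Its size depended on control replicate 1, without which it was -1.74, and by limma-voom it was not called (adjusted p = 0.102). Amn, which encodes amnionless, the membrane anchor of the vitamin B12 receptor in yolk sac and intestine, had 8.90 and 1.95 CPM against 131 and 77.7 CPM (-3.99 ± 0.48, adjusted p = 0.000865). It ranged from -5.59 without DUX-pulsed replicate 1 to -3.36 without DUX-pulsed replicate 2.

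Sfrp5, a secreted WNT antagonist of the foregut and visceral endoderm, had 5.96 and 5.39 CPM in DUX-pulsed cells against 63.9 and 55.2 CPM in control cells, a log2 change of -3.20 ± 0.20 (adjusted p = 6.75e-05). Tdh, threonine dehydrogenase, had 60.8 and 52.0 CPM against 318 and 340 CPM (-2.36 ± 0.16, adjusted p = 8.63e-05). Ramp2, a subunit of the adrenomedullin receptor, had 89.2 and 92.4 CPM against 404 and 423 CPM (-2.0 ± 0.14, adjusted p = 9.85e-05). The groups were far apart for all 3 genes, which also fell in the cells outside the Ly6h panel, by 3.13, 2.05 and 1.90 on the log2 scale.

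The other falls were of Cldn9 and Rarres1, both genes of the Ly6h panel, and of Apoc1, Car2, Cited1, Trf and Prss12. Cldn9, a claudin of tight junctions, had 2.73 and 6.74 CPM in DUX-pulsed cells against 57.7 and 71.6 CPM in control cells. Trf, the iron carrier transferrin, had 20.2 and 14.1 CPM against 86.5 and 96.6 CPM, and Cited1, a transcriptional coregulator, 75.1 and 39.6 CPM against 373 and 255 CPM. Apoc1, Car2, Cited1, Trf and Prss12 kept their fall outside the Ly6h panel. There Cldn9 and Rarres1 had log2 fold changes of -3.19 and -1.48, against -3.66 and -2.44 in all Ghrl-panel cells. Both genes helped to choose the cells left out, most of them control cells. Their values in the remaining cells therefore cannot show whether the fall persisted or shrank.

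**Figure D3:**
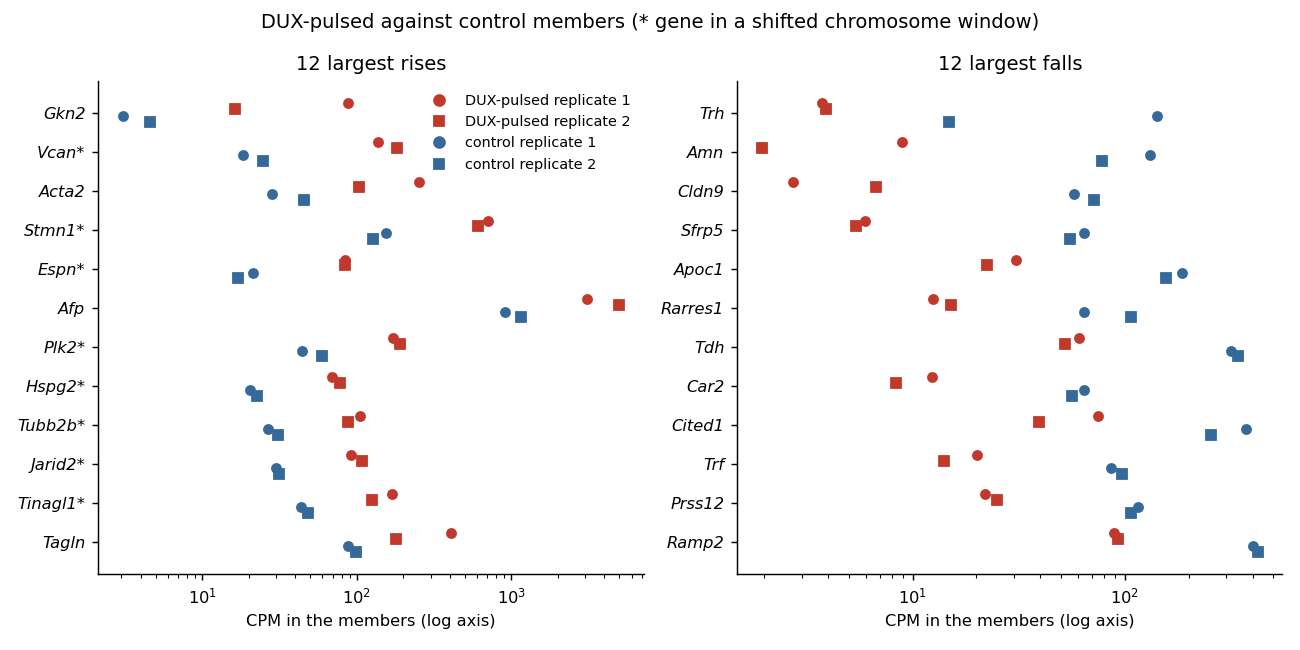
CPM in the Ghrl-panel cells (log axis) of the 12 genes with the largest rises (left) and the 12 with the largest falls (right) in DUX-pulsed against control cells, with 1 point per library (red, DUX-pulsed; blue, control; circles, replicate 1; squares, replicate 2; for each gene the DUX-pulsed points stand above the control points). An asterisk marks a gene in a shifted stretch of a chromosome, as for 8 of the rises and 0 of the falls.

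Lists of genes by function are described by their counts, to be read against 10.1% of all genes called higher and 8.92% called lower. Counts outside the Ly6h panel are to be read against that fit, in which 610 of 11405 genes (5.35%) were higher and 470 (4.12%) lower. The transcription factors and structural genes of endoderm were mostly not called. Of 12 general endoderm genes tested, 0 were higher and 2 lower, Foxa2 (68.7 and 74.6 CPM in DUX-pulsed, 109 and 126 CPM in control cells) and Gata6 (104 and 106 CPM against 167 and 185 CPM), with log2 fold changes of -0.53 ± 0.14 (adjusted p = 0.0288) and -0.56 ± 0.14 (adjusted p = 0.0201). Neither was called outside the Ly6h panel (adjusted p = 0.234 and 0.128). Foxa2 was not called without DUX-pulsed replicate 1 (adjusted p = 0.103), nor Gata6 without DUX-pulsed replicate 2 (0.0611), in fits that took the spread from the control libraries and from all genes and not from the gene itself. Both lost it when control replicate 1 was left out (0.0901 and 0.0864) and when control replicate 2 was (0.168 and 0.112).

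Of 15 tested factors of gut regions, 0 were higher and 2 lower, Pdx1 and Tbx3, both in the shifted stretch of chromosome 5. Pdx1, the factor of pancreas and duodenum, had 3.23 and 4.05 CPM in DUX-pulsed cells against 11.2 and 10.9 CPM in control cells (log2 fold change -1.43 ± 0.25, adjusted p = 0.00429). Outside the Ly6h panel neither was called (adjusted p = 0.0836 for Pdx1 and 0.329 for Tbx3), and the 1 call of the list was Hhex, which was lower. Cdx2, in the same stretch, had 83.4 and 83.7 CPM against 111 and 110 CPM and was not called (adjusted p = 0.318).

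Of 14 tested genes of enteroendocrine cells and their granules, 7 were lower and 1, the LIM factor Isl1, was higher. Chga, which encodes the granule protein chromogranin A, had 1.52 and 0.599 CPM in DUX-pulsed cells against 11.6 and 12.2 CPM in control cells (log2 fold change -3.20 ± 0.36, adjusted p = 0.000654), and -4.12 without DUX-pulsed replicate 1. Pcsk1n, an inhibitor of the prohormone convertase and a gene of a shifted stretch of the X chromosome, had 4.55 and 2.70 CPM against 32.7 and 30.9 CPM (-2.90 ± 0.25, adjusted p = 0.00018). Isl1, on chromosome 13, had 19.7 and 16.6 CPM against 3.42 and 3.36 CPM (2.60 ± 0.23, adjusted p = 0.000208). Vwa5b2 was lower in the DUX-pulsed cells too, at 1.52 and 1.80 CPM against 11.9 and 9.07 CPM.

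Rfx6, a factor of gut and pancreas endocrine development, had 24.5 and 34.0 CPM in DUX-pulsed cells against 47.9 and 58.3 CPM in control cells (log2 fold change -0.68 ± 0.18, adjusted p = 0.0285). It was not called outside the Ly6h panel (adjusted p = 0.478), nor without DUX-pulsed replicate 1 (0.135, in a fit that did not use the gene's own spread), control replicate 1 (0.0508) or control replicate 2 (0.138). Outside that panel 3 of 11 tested genes of the list were lower and 1 higher. Of 7 tested genes for receptors and processing of ghrelin and peptide YY, 0 were higher and 1 lower. This was Dpp4, the peptidase that trims peptide YY, with 173 and 197 CPM against 289 and 379 CPM (-0.66 ± 0.16, adjusted p = 0.0166). Dpp4 lies in a shifted window of chromosome 2 and was not called outside the Ly6h panel (adjusted p = 0.0896) or without control replicate 2 (0.128).

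Of 16 tested genes of intestinal epithelium and its brush border, 9 were lower and 4 higher. Spink1, a secreted trypsin inhibitor, had 1495 and 1695 CPM in DUX-pulsed cells against 4864 and 4744 CPM in control cells (log2 fold change -1.41 ± 0.17, adjusted p = 0.000832). Muc13, a membrane mucin, had 2.12 and 3.30 CPM against 22.2 and 28.8 CPM (-3.08 ± 0.25, adjusted p = 0.000168), and Anpep, a brush border peptidase, 3.23 and 2.25 CPM against 26.3 and 44.2 CPM (-3.44 ± 0.29, adjusted p = 0.000186). Lgals2, a galectin, had 150 and 149 CPM against 427 and 366 CPM. Keratin 7 (Krt7) rose, with 122 and 95.3 CPM against 41.5 and 47.5 CPM (1.48 ± 0.17, adjusted p = 0.000755). Vil1, which encodes villin, had 43.3 and 59.8 CPM against 41.8 and 63.9 CPM, and its groups overlapped.

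Of 20 tested genes of visceral endoderm and yolk sac, 10 were lower and 3 higher, and outside the Ly6h panel 8 were lower and 3 higher. The falls held genes of lipoproteins and vitamin uptake. Apob, the structural protein of lipoproteins, had 236 and 369 CPM in DUX-pulsed cells against 659 and 927 CPM in control cells (log2 fold change -1.21 ± 0.22, adjusted p = 0.00537), and Apom 408 and 531 CPM against 1213 and 1097 CPM (-1.12 ± 0.18, adjusted p = 0.00274). Afp, described above, was among the 3 that rose. Ttr, which carries thyroid hormone and retinol, had 4632 and 4742 CPM against 6236 and 6466 CPM and was not called. Of 8 liver secretory genes outside the rule, 2 were higher and 2 lower, and Serpina1b among the rises belongs to a family of near-identical genes that share reads.

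Of 14 tested parietal endoderm genes 4 were higher and 0 lower, of which 3 lie in the shifted stretch of chromosome 13. Lamc1, a laminin chain outside it, had 146 and 103 CPM in DUX-pulsed cells against 49.0 and 78.2 CPM in control cells (log2 fold change 1.17 ± 0.23, adjusted p = 0.00772). Nid1, the basement membrane protein nidogen 1, had 29.6 and 8.39 CPM against 1.62 and 1.57 CPM, a log2 fold change of 3.78 that was 2.54 without DUX-pulsed replicate 1. Of 22 genes of epithelial adhesion, 5 were higher and 1, Cldn9, was lower. Epcam had 821 and 884 CPM against 628 and 789 CPM and was not called (adjusted p = 0.0709).

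Beyond Cdkn2a and Cdkn2b, 2 of 5 other cyclin-dependent kinase inhibitors were higher and 0 lower. Cdkn1c, which encodes p57 and is imprinted, had 6.17 and 9.44 CPM in DUX-pulsed cells against 1.45 and 1.90 CPM in control cells (log2 fold change 2.38 ± 0.34, adjusted p = 0.0017). It was not called outside the Ly6h panel (adjusted p = 0.0508). Cdkn1a, the p21 gene, had 324 and 247 CPM against 257 and 227 CPM, with overlapping groups. Of 26 regulators and targets of the Ink4 genes and Polycomb subunits, 5 were higher and 1 lower, and none of the core subunits Ezh2, Eed and Suz12 was called. Among those that rose were cyclin D genes, whose kinases Cdkn2a and Cdkn2b inhibit, but Ccnd3, with 170 and 167 CPM against 154 and 156 CPM, was not called (edgeR's adjusted p = 0.165). Ccnd2 had 396 and 402 CPM against 139 and 161 CPM (1.59 ± 0.14, adjusted p = 0.000233), and Ccnd1 had 41.1 and 34.3 CPM against 5.30 and 11.1 CPM (2.43 ± 0.27, adjusted p = 0.000686).

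Of 17 tested p53 target genes, 8 were higher and 1 lower in the DUX-pulsed cells, and 4 were higher and 0 lower of 16 outside the Ly6h panel. Ccng1, a cyclin induced by p53, had 133 and 151 CPM in DUX-pulsed cells against 72.9 and 75.3 CPM in control cells (log2 fold change 1.12 ± 0.14, adjusted p = 0.0011). Perp, a desmosomal protein, had 65.0 and 42.1 CPM against 23.5 and 28.1 CPM (1.25 ± 0.22, adjusted p = 0.00464). Of 8 tested genes of the senescence secretome, 3 were higher and 2 lower, and 1 was higher outside the Ly6h panel. Igfbp5 had 39.6 and 24.1 CPM against 113 and 123 CPM, and was not called outside that panel (adjusted p = 0.0542). Il6, Il1a and Il1b had 0 UMIs in the Ghrl-panel cells.

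Cell cycle genes were called higher and not lower, by modest amounts. Of 31 genes of G2 and M phase, 11 were higher, and of 30 of S phase, 5, but outside the Ly6h panel 1 gene was higher in each list, near or below the 5.35% of all genes. Ube2c, a ubiquitin-conjugating enzyme of mitotic exit, had 378 and 353 CPM in DUX-pulsed cells against 230 and 254 CPM in control cells (log2 fold change 0.78 ± 0.14, adjusted p = 0.0054) and was not called outside that panel (adjusted p = 0.0621). Ccnb1, the mitotic cyclin B1 on chromosome 13, had 133 and 142 CPM against 52.0 and 61 CPM. Its log2 fold change was 1.47 ± 0.14 (adjusted p = 0.000332).

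Relatives of the remaining markers were low. Besides Rgs17, 10 genes of the RGS family were tested, of which 2 were higher and 1 lower, and Rgs3 had 21.9 and 22.2 CPM in DUX-pulsed cells against 9.06 and 11.3 CPM in control cells. Besides Nepn, 2 small leucine-rich proteoglycans were tested and both were lower. Bgn, biglycan, had 1.42 and 1.5 CPM against 4.45 and 5.93 CPM, and Podn, podocan, 0.404 and 0.749 CPM against 5.21 and 3.47 CPM. Bgn lost its call without control replicate 2 (adjusted p = 0.073).

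Among 28 tested genes of signalling pathways, 4 were higher and 4 lower. The hedgehog ligands differed in direction. Ihh, the ligand of gut and visceral endoderm, had 35.1 and 40.6 CPM in DUX-pulsed cells against 74.3 and 73.1 CPM in control cells (log2 fold change -0.79 ± 0.15, adjusted p = 0.00682), while Shh had 34.6 and 33.9 CPM against 3.08 and 10.3 CPM (2.60 ± 0.37, adjusted p = 0.00184). Shh was 1.96 when control replicate 1 was left out and 3.59 when control replicate 2 was, and it was not called outside the Ly6h panel (adjusted p = 0.127). Their receptor and target Ptch1, on chromosome 13, had 34.7 and 30.9 CPM against 15.5 and 17.2 CPM.

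Of 18 tested imprinted genes 6 were higher and 1 lower, and outside the Ly6h panel 5 were higher and 1 lower. Peg10, a gene derived from a retrotransposon, had 412 and 449 CPM in DUX-pulsed cells against 154 and 195 CPM in control cells (log2 fold change 1.49 ± 0.15, adjusted p = 0.000422). Dlk1, a Notch-like membrane protein, had 29.0 and 42.0 CPM against 10.4 and 10.1 CPM (1.96 ± 0.21, adjusted p = 0.000488). Of 17 genes of pluripotent and epiblast cells, 9 were lower and 1 higher. Dnmt3b, a DNA methyltransferase, had 10.6 and 5.39 CPM against 52.2 and 37.2 CPM (-2.26 ± 0.31, adjusted p = 0.00144), and -2.90 without DUX-pulsed replicate 1. Fgf5, a gene of the epiblast, had 0.202 and 0 CPM against 8.89 and 5.93 CPM. Of 24 early cleavage-stage genes listed as DUX targets, only 4 were in the table, 2 were tested and 0 called. Most of that list was therefore not measured.

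Markers of other cell types were measured in the same sums. The summed level of 17 cardiomyocyte genes was 738 and 316 CPM in DUX-pulsed and 383 and 266 CPM in control Ghrl-panel cells, and 4 of 16 tested were higher and 1 lower, against 1 higher and 1 lower outside the Ly6h panel. Tnni3, cardiac troponin I, had 16.9 and 2.25 CPM against 0.171 and 0.672 CPM, with most of it in DUX-pulsed replicate 1, where Postn of fibroblasts was also high (15.0 and 2.40 CPM against 0.257 and 0.224 CPM). Outside the Ly6h panel Tnni3 was not called (adjusted p = 0.0836), and Postn had 3.34 and 2.51 CPM against 0.594 and 0.401 CPM. The 16 mesenchymal genes summed to 1607 and 1809 CPM against 1041 and 1206 CPM, and 5 of 11 tested were higher and 1 lower. Fn1, fibronectin, which endoderm also expresses, had 764 and 1116 CPM against 474 and 547 CPM (log2 fold change 1.06 ± 0.19, adjusted p = 0.00475). The part of these markers in the rises of Acta2, Tagln and the matrix genes was not tested.

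The markers of other lineages differed in direction. The 15 endothelial genes summed to 265 and 259 CPM in DUX-pulsed cells against 773 and 836 CPM in control cells, with 2 of 7 lower, Ramp2 and the Ly6h-panel gene Flt1, while the endothelial Pecam1 was at or below 2.56 CPM in every library. The leucocyte gene Ptprc had 0 UMIs, and 18 myeloid genes summed to at most 11.8 CPM. Erythroid genes summed to 61.5 and 33.6 CPM against 81.9 and 74.2 CPM, with 2 of 5 higher and 1 lower. The 13 trophoblast genes in the table summed to 149 and 146 CPM against 108 and 95.8 CPM, and of 7 tested 2 were higher and 2 lower. Of 16 genes induced by dissociation 3 were higher and 0 lower, and of 23 genes of hypoxia and glycolysis 3 were higher and 4 lower.

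**Figure D4:**
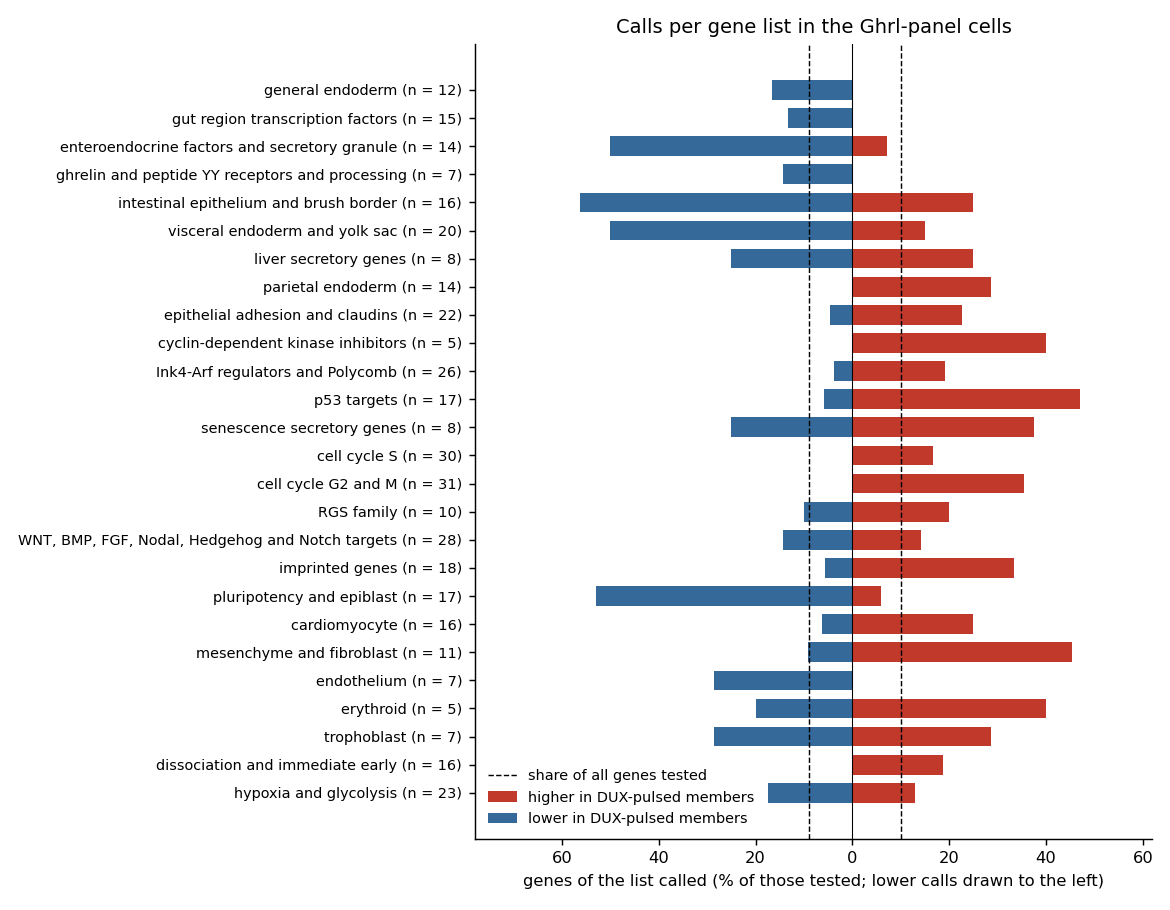
Percentage of the tested genes of each list that were called higher (red, to the right) or lower (blue, to the left) in DUX-pulsed against control Ghrl-panel cells, leaving out the genes of the rule. Dashed lines mark the shares among all genes tested, 10.1% higher and 8.92% lower; the lists of granule genes, intestinal, visceral endoderm and pluripotency genes extend past the line on the lower side.

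The difference between the groups in the Ghrl-panel cells was set against that in the nearest secretory class of the same libraries. These Itih2-panel cells had at least 2 UMIs in 4 or more of the Itih2 genes named above and numbered 35 and 12 in DUX-pulsed libraries, against 6 and 11 in control libraries. Of 12504 genes tested for the interaction of class and group, 233 (1.86%) had a more positive and 125 (1%) a more negative log2 fold change in the Ghrl-panel cells at an adjusted p under 0.05 (edgeR's quasi-likelihood test), and 1607 had an unadjusted p under 0.05. In that fit the prior degrees of freedom came out infinite, so that every gene was given the spread of genes of like level and its own spread between libraries did not enter the p-value. With limma-voom, which kept that spread, 80 genes were called, 68 of them shared with the first test in the same direction, and no p from the first test is given for single genes. Cited1 had 75.1 and 39.6 CPM in DUX-pulsed against 373 and 255 CPM in control Ghrl-panel cells, and 499 and 124 CPM against 302 and 109 CPM in Itih2-panel cells. Its interaction was -3.35 ± 0.36 on the log2 scale (limma-voom, adjusted p = 0.00198). Trf had 710 and 643 CPM in the DUX-pulsed and 952 and 218 CPM in the control Itih2-panel cells, so that its control libraries stood far apart, and its interaction was -3.04 ± 0.47 (limma-voom, adjusted p = 0.0183). The few Itih2-panel cells limit this comparison, and the calls of the first test ranged from 76 when DUX-pulsed replicate 1 was left out to 337 when control replicate 1 was, with 207 and 181 for the other two libraries.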

How the data were processed

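The authors deposited 1 table of UMI counts per gene and cell for all 4 libraries of single-cell RNA from day 9 embryoid bodies. The submitters' processing notes name Cell Ranger 2.2.0, STAR and the build mm10. The table holds 20284 genes and 10090 cells, each with at least 501 genes detected, so the minimum of 500 removed none. The labels call the 2 libraries of a group biological replicates. The Ghrl-panel cells, the gene lists and the tests were chosen with earlier results of these data known.

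Raw counts were summed over the Ghrl-panel cells of each library and tested with edgeR 4.0.16 (R 4.3.3; TMM scaling, quasi-likelihood test, two-sided, Benjamini-Hochberg adjustment over all genes tested), for genes with at least 10 counts in 2 or more sums and 40 in all. The difference between DUX-pulsed and control cells was set against that in Itih2-panel cells with library as a block. limma 3.58.1 (voom) was added after the data were seen, because the prior degrees of freedom of that fit were infinite, and DESeq2 1.42.0 was an alternative. On simulated counts of 12329 genes the comparison of groups recovered 92% of 2-fold and 100% of 4-fold rises, and 82% and 98% of such falls. On 12480 genes the comparison of classes recovered 22% and 60% of rises, and 26% and 78% of falls. The simulated coefficient of variation between libraries was below the 0.139 estimated for the Ghrl-panel cells, and the changed genes excluded those of lowest counts. Recovery in these data may therefore be lower. Named genes were the 12 largest rises and 12 largest falls past the threshold with a mean of 50 CPM or more in either group and no overlap between groups, leaving out genes of the rule, mitochondrial, ribosomal and unnamed genes, and the 2 genes of smallest p in each list; further list members were picked after their values were seen. Doublets were kept. Scrublet (scanpy 1.11.5) called 27 kept cells, too few to show that it worked, so leaving out the top 5% of scores was an alternative. Other alternatives changed the cell filter, the number of markers, the depth and the libraries. Positions come from a mouse annotation of mm10, with 20034 symbols matched and 250 not, and promoters from RefSeq.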

Additional observations from a re-analysis of the deposited data

Results flagged for a closer look

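For 10 genes named by size, the difference between DUX-pulsed and control cells was compared between Ghrl-panel and Itih2-panel cells. The values are interactions on the log2 scale (Ghrl-panel minus Itih2-panel). All 10 were called by edgeR, but not all of them by limma-voom. All rest on 35 and 12 DUX-pulsed and 6 and 11 control Itih2-panel cells. Each gene has edgeR's estimate, which chose it, and then limma-voom's own estimate with its adjusted p, since the edgeR test did not use each gene's own spread between libraries.

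Cxcl10, a chemokine, had 8.62 by edgeR and 4.57 by limma-voom (adjusted p = 0.0286). It had 0 and 0 UMIs in DUX-pulsed against 1 and 5 UMIs in control Itih2-panel cells, so neither estimate is a measured fold. Ankrd1 had 7.28 and 5.92 (0.0503), and AC158554.1 had 4.58 and 3.41 (0.292). Both had nearly all their Itih2-panel UMIs in control replicate 2, and neither was called by limma-voom. Grb10, an imprinted adaptor of insulin signalling, had 3.58 by both (0.0255), and F3, tissue factor, had 3.56 and 3.31 (0.0328). Fga, a fibrinogen chain, had -5.69 and -5.01 (0.0211), with 93 and 62 UMIs in DUX-pulsed against 1 and 1 in control Itih2-panel cells. C3, a complement protein, had -4.50 and -4.30 and was not called by limma-voom (0.0563). F10, a clotting factor, had -3.69 and -3.62 (0.0255), Cited1 had -3.21 and -3.35 (0.00198), and Trf had -3.0 and -3.04 (0.0183). No cause was tested.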

How the results depend on the processing

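The share of Ghrl-panel cells, 3.82 points higher in DUX-pulsed than in control libraries, was lower on average by the rule of 3 markers (-2.41 points, with overlapping libraries). It was 3.08 with 5 markers, 0.399 with all 6, 5.73 under a stricter cell filter (1000 genes or more, mitochondrial share up to 5%), 3.17 in all cells of the table, 4.50 without the top 5% of Scrublet scores, 4.66 when cells were thinned before the rule and 8.44 without Ly6h-panel cells; leaving out 1 library gave 3.62 to 4.03. Against 2355 genes called between the groups, 883 were called in the stricter cells, 1443 after thinning, 1080 without Ly6h-panel cells and 1230 to 2533 with 1 library left out. Without either DUX-pulsed library the prior degrees of freedom were infinite, so those fits say little on stability. Without genes of the shifted stretches, 749 were higher and 842 lower. With a replicate block 4603 were called; the numbers only name libraries (r = 0.277 between same-numbered deviations, 2 pairs). limma-voom called 2322 and DESeq2 1809.

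Against 358 interaction calls, 80 were called by limma-voom, 53 by DESeq2, 120 with 5 markers, 45 in the stricter cells, 34 after thinning, 1692 against all other kept cells and 76 to 337 with 1 library left out. Interactions turned sign for Cxcl10 (-2.60) and Ankrd1 (-1.41) in the stricter cells, for AC158554.1 (-0.85) and Grb10 (-0.39) against all other cells and for Grb10 with 5 markers (-0.69). With 1 library left out Ankrd1 ranged from -2.81 to 8.23 and AC158554.1 from -6.15 to 8.97. The cause was not tested. Of the alternatives for 63 genes named between the groups, 939 kept direction and side of the threshold, 40 lost the call, 3 gained it and 0 turned sign.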

Other observations

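Most of the RNA of each hormone was held by few Ghrl-panel cells. At least 10 Pyy UMIs were found in 23 and 14 DUX-pulsed and 25 and 24 control Ghrl-panel cells, which held 82.3% and 84.6% against 88.0% and 85.6% of the Pyy UMIs of the class. At least 30 Ghrl UMIs were found in 41 and 22 DUX-pulsed and 14 and 16 control cells. Both limits, chosen after the values were seen, were met by 4 and 2 DUX-pulsed and 2 and 4 control cells. Of the Pyy-rich cells 1 and 2 DUX-pulsed and 20 and 19 control ones also met the Ly6h panel.

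Upp1, uridine phosphorylase, had 497 and 446 CPM in DUX-pulsed and 183 and 224 CPM in control Pyy-rich cells, and 237 and 206 CPM and 110 and 119 CPM in the other Ghrl-panel cells of those libraries. Sox17, an endoderm factor, had 38.5 and 45.1 CPM in DUX-pulsed and 65.4 and 42.8 CPM in control Ghrl-rich cells, and 102 and 68.2 CPM and 143 and 146 CPM in the other cells. Granule genes differed in direction between Pyy-rich and other Ghrl-panel cells. Summed over the 4 libraries, Chga had 16.0 CPM in Pyy-rich cells against 6.16 CPM in the others, while Pcsk1n had 16.5 CPM against 19.7 CPM, Ptprn 3.08 CPM against 5.83 CPM and Rfx6 41.2 CPM against 41.7 CPM. These cells were chosen by expression and no test was made.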
